A study of Mus musculus with 8 samples.

Results

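A set of 36 genes that mark the nerve cells and glia of the gut wall was followed in the colon of mice on a curcumin diet and on a control diet. The genes were taken as a fixed list of symbols and found through the gene symbols of the array's probe annotation: 28 are neuronal, 6 are glial, and the receptor genes Gfra1 and Ednrb are shared by neurons, glia and their progenitors. All 36 were on the array with 68 probes in all, 35 could be tested, and they were 35 of 24030 gene-level measurements tested. Colon RNA was taken from 8 males of the mdr1a-/- line, in which the efflux pump gene Abcb1a is disrupted and colitis develops spontaneously; both diets share this genotype. There were 4 curcumin mice, fed the AIN-76A diet with 0.2% curcumin, a polyphenol of turmeric, and 4 control mice, fed AIN-76A alone. The labels give an age of 7 weeks for all, although the design text follows the mice for months from that age, and they give the strain, Swiss, only for the control arrays. Each mouse had its own Agilent 2-colour array, with its RNA in Cy3 and a reference RNA in Cy5. The arrayed mice were those with little histological injury in the curcumin arm and those with much of it in the control arm, by the design text, so that the effects of diet and of injury cannot be told apart.

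The enteric nervous system lies in ganglia between the muscle layers and below the mucosa, and its neurons drive motility, secretion and blood flow. Excitatory motor neurons use acetylcholine and tachykinins, inhibitory motor neurons use nitric oxide and vasoactive intestinal peptide, and sympathetic fibres that enter the gut from outside carry noradrenaline and neuropeptide Y. Enteric glia surround the neurons, express Sox10, S100b and Gfap, and derive from the same neural crest progenitors, which depend on the receptors Ret with Gfra1 and Ednrb. Neurons and glia are a small part of a piece of colon, and in RNA of whole tissue fewer cells of a type and less RNA per cell cannot be told apart.

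The deposited values are log2 ratios of the channels on each array, and the labels do not state which channel is on top. The mouse sample over the reference is the likely direction: a list of liver genes had array medians from -3.35 to -2.65 and a list of kidney genes from -2.39 to -1.39, and the liver apolipoprotein gene Apoa1 lay between -4.52 and -3.86 on the 8 arrays. These genes are little used in colon, so low ratios fit colon RNA on top and a reference that holds such tissues. With the reference on top, each sign, rise and fall given here would be reversed. The labels describe the reference as colon of wild-type mice and also as 1 RNA for all arrays, and which of these is right is not known. Abcb1a itself lay between -0.39 and 0.05 in curcumin mice and between -0.67 and -0.43 in control mice, and whether its probes read the disrupted part is not known. A list of brain genes had array medians from -0.11 to 0.12 in curcumin mice and from 0.02 to 0.14 in control mice. A log ratio says nothing of the level of a transcript, so a value near 0 means a similar signal in both channels, bright or dim. Of 44290 features, 11.4 to 23.8% had no value on an array, with the most on curcumin array 2.

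With curcumin, 4 neuronal genes rose and 1 glial gene fell, among the 35 that could be tested. The genes that rose were Snap25 (1.69-fold), Uchl1 (1.49-fold), Elavl4 (1.40-fold) and Nefl (1.37-fold), and the gene that fell was Gpm6b (2.68-fold lower in curcumin mice). The other 30 did not pass. The test was limma across all 24030 measurements with Benjamini-Hochberg adjustment and a threshold of 0.05, and by it 4.73% of all measurements changed, 2.10% higher and 2.63% lower with curcumin. After quantile normalization between arrays the split over all measurements was 619 higher and 489 lower, in place of 504 higher and 633 lower, and 4 higher and 1 lower were found in the set. The 4 rises passed narrowly. None passed when any 1 of control arrays 1, 2 and 4 or curcumin arrays 1 and 4 was left out. In those fits 487 to 1083 of all measurements passed, in place of 1137. With any 1 array left out, the 4 differences ran from 0.38 to 0.84. None of the 4 passed with the replicate number as a block, and 2 passed with the slide number range as a block. Curcumin arrays 3 and 4 lie in a slide number range without control arrays, so under that block they add nothing to the diet difference. Gpm6b passed in each fit with 1 array left out and with either block. It rests on 1 of 4 probes, the others having values on too few arrays, and it missed the threshold in 2 further fits. These were the fit within the slide numbers that hold both diets (adjusted p = 0.0503 in limma) and averaging of all 4 probes before filtering (adjusted p = 0.171 in limma). In 7 of the 35 genes the curcumin and control arrays did not overlap, where 12.6% of all measurements did not.

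**Figure D1:**
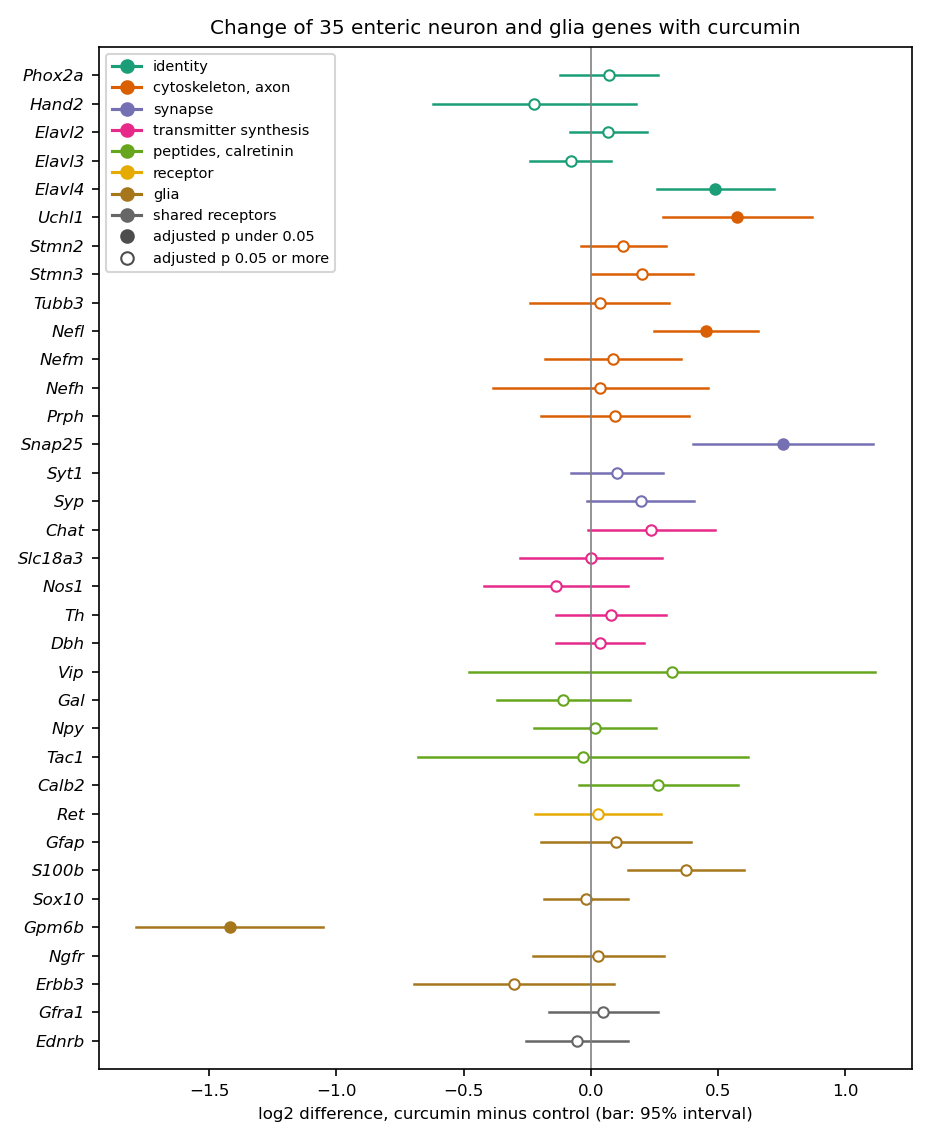
The horizontal axis gives the log2 difference, curcumin minus control, of each of 35 genes with its 95% interval (4 arrays per diet, 3 for genes with a missing value), and colours give the gene's role. Filled circles mark the 5 genes with an adjusted p under 0.05: Elavl4, Uchl1, Nefl and Snap25 lie right of 0 and Gpm6b lies at -1.42.

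Among the synaptic vesicle genes, Snap25, which encodes a membrane protein of the complex that fuses vesicles with the plasma membrane, was higher in every curcumin mouse. It had log2 ratios of 0.94, 1.34, 0.71 and 0.72 on curcumin arrays 1 to 4, against -0.08, 0.20, 0.41 and 0.15 on control arrays 1 to 4. The lowest curcumin value lay above the highest control value. The difference was 0.76 (SE 0.16, 95% interval 0.40 to 1.11, adjusted p = 0.0289 in limma), and 0.97 within the range of slide numbers that holds both diets, where it missed the threshold (adjusted p = 0.0677). Its pair of usable probes gave 0.71 (SE 0.17) and 0.81 (SE 0.16), and both passed in a fit of single probes, in which 4.35% of 33957 probes did. Its remaining probe, not used, had 0.12 on curcumin array 1 and 0.16, 0.04 and 0.24 on control arrays 1 to 3.

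Syt1, the calcium sensor of vesicle release, showed no such separation at gene level. It had -0.04, 0.01, 0.00 and -0.03 on the curcumin arrays and -0.30, 0.01, -0.07 and -0.11 on the control arrays, with a difference of 0.10 (95% interval -0.08 to 0.29, adjusted p = 0.566 in limma). The vesicle membrane protein gene Syp averaged 0.13 ± 0.09 in curcumin mice and -0.06 ± 0.15 in control mice (SD, n = 4 each), a difference of 0.20 that did not pass (adjusted p = 0.314 in limma). The Syt1 value averages 3 usable probes of unlike sign. The one with a value on every array gave -0.04 (SE 0.07). The others, each on 3 curcumin and 4 control arrays, gave 0.14 (SE 0.09), without overlap, and 0.22 (SE 0.15), with overlap. Of the unused probes, 1 had 0.40 and 0.43 on curcumin arrays 1 and 3, against 0.03, 0.00 and -0.24 on control arrays 1, 3 and 4. The other had -0.33 and 0.25 on curcumin arrays 1 and 3 and 0.34 and 0.16 on control arrays 2 and 3. At gene level all 3 synaptic genes were thus above 0, but the sign of Syt1 depended on the probe. Of the 3 genes, 1 passed.

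Of the 8 tested genes of the neuronal cytoskeleton and axon, 2 rose and none fell, and all 8 differences were above 0, from 0.04 to 0.58. Uchl1, the neuronal ubiquitin hydrolase known as PGP9.5 and a standard stain for enteric neurons, had 0.36, 0.64, 0.20 and 0.37 on the curcumin arrays. On the control arrays it had -0.41, -0.29, 0.10 and -0.15, all below every curcumin value. The difference was 0.58 (SE 0.13, 95% interval 0.28 to 0.87, adjusted p = 0.0395 in limma). Of its probes, 1 gave 0.46 (SE 0.10) without overlap and passed alone, and the other gave 0.70 (SE 0.21), with the diets overlapping.

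Nefl, the light chain of the neurofilaments that fill axons, had 0.36, 0.64, 0.26 and 0.40 on the curcumin arrays, against 0.00, -0.11, 0.00 and -0.06 on the control arrays. The diets did not overlap, and the difference was 0.45 (SE 0.09, 95% interval 0.25 to 0.66, adjusted p = 0.0254 in limma). Each of its probes alone separated the diets, with 0.58 and 0.33, but missed the threshold alone (adjusted p = 0.0604 and 0.095). The middle and heavy neurofilament chains did not follow in a way that passed: Nefm had a difference of 0.09 (95% interval -0.18 to 0.35, 3 curcumin and 4 control arrays). Nefh, measured on the same numbers of arrays, had a difference of 0.04, with an interval of -0.39 to 0.46 that includes the size seen in Nefl. Without control array 2, which stood apart at 0.80, it was 0.22 (SE 0.08, adjusted p = 0.216 in limma). Prph, a peripheral neuron intermediate filament, had 0.10 (95% interval -0.20 to 0.39, 4 curcumin and 3 control arrays).

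Stmn3, a microtubule regulator of neurons, also separated the diets without passing. It had 0.30, 0.56, 0.37 and 0.41 on the curcumin arrays, against 0.04, 0.23, 0.29 and 0.28 on the control arrays (difference 0.20, SE 0.09, adjusted p = 0.261 in limma). Its relative Stmn2, of growing axons, had a difference of 0.13 (95% interval -0.04 to 0.30). The neuronal tubulin gene Tubb3 averaged 0.00 ± 0.25 in curcumin mice and -0.04 ± 0.06 in control mice (SD, n = 4 each). Gap43, a protein of growth cones, was left out of the test because its only probe had values on too few arrays: 0.36 and 0.68 on curcumin arrays 1 and 4, and -0.44 and 0.15 on control arrays 2 and 3.

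**Figure D2:**
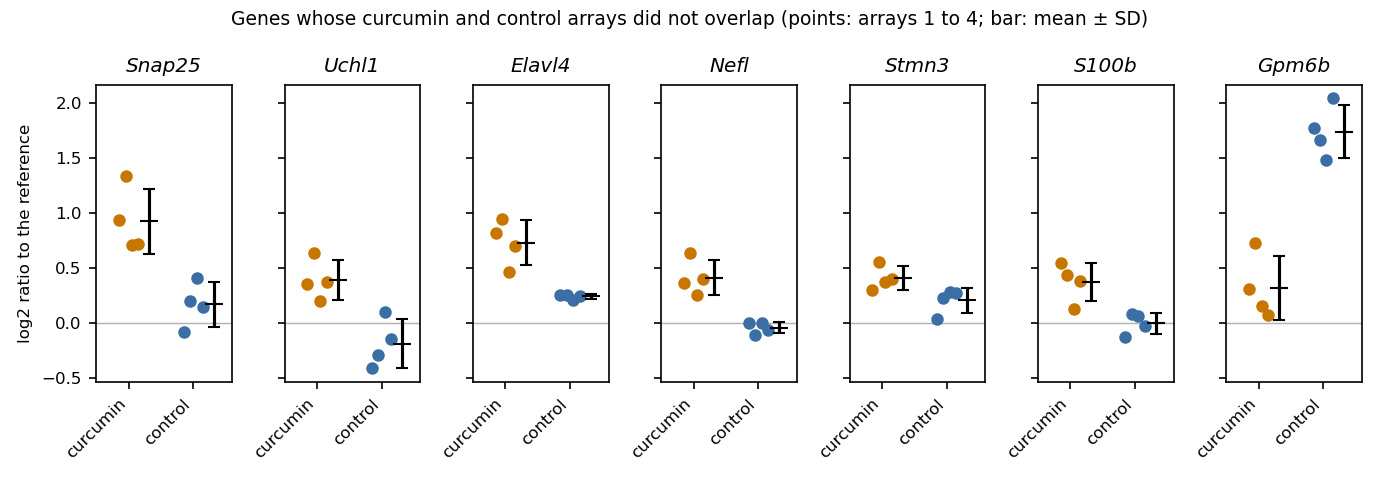
The vertical axis gives the log2 ratio to the reference on each array for the 7 genes in which the 4 curcumin arrays (left) and the 4 control arrays (right) did not overlap, with the mean ± SD beside the points. Snap25, Uchl1, Elavl4, Nefl, Stmn3 and S100b are higher in curcumin mice and Gpm6b is lower, and Stmn3 and S100b did not pass the threshold.

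Among the 5 genes of neuronal identity, 1 rose. Elavl4 encodes HuD, an RNA-binding protein of neurons from the family stained as Hu in enteric ganglia. It had 0.82, 0.94, 0.47 and 0.70 on the curcumin arrays, against 0.25, 0.26, 0.21 and 0.25 on the control arrays, which lay close together. The difference was 0.49 (SE 0.10, 95% interval 0.26 to 0.72, adjusted p = 0.0295 in limma), from 1 usable probe. The other probe had a value on 1 array per diet, 0.27 on curcumin array 2 and 0.36 on control array 2. Its paralogs did not pass: Elavl2 had a difference of 0.07 (95% interval -0.08 to 0.22) and Elavl3 one of -0.08 (95% interval -0.24 to 0.08). The unused probe of Elavl3 had 0.40, 0.54, 0.22 and 0.53 on the curcumin arrays and 0.22 and 0.11 on control arrays 2 and 3, and with it included the Elavl3 difference was 0.15, which did not pass (adjusted p = 0.336 with values on at least 2 arrays per diet). In that fit control arrays 1 and 4 hold the lower probe alone.

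Phox2a and Hand2 are transcription factors needed for enteric and autonomic neurons. Phox2a had -0.18, 0.01, 0.05 and 0.07 on the curcumin arrays and -0.06, -0.16, -0.16 and 0.04 on the control arrays, with a difference of 0.07 (adjusted p = 0.732 in limma). Hand2 had -0.59, -0.64, -0.98 and -0.87 on the curcumin arrays and -0.88, -0.06, -0.48 and -0.77 on the control arrays, with a difference of -0.22 (adjusted p = 0.58 in limma). In both genes the diets overlapped at gene level. Of the Hand2 probes, 1 had every curcumin array below every control array, with a difference of -0.19 (SE 0.08, adjusted p = 0.255 in limma). The other gave -0.25 (SE 0.30), with overlap.

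The windows around the annotated starts of 3 of the 5 changed genes are shown because these genes moved with the diet, and the other 2, Snap25 and Nefl, are named only. Each runs from 250 bases before to 50 after the start on the gene's strand, from RefSeq on GRCm38.p6. Elavl4 is at chr4:110351862-110352161 (minus strand, the outermost of 4 listed starts), Uchl1 at chr5:66675871-66676170 (plus strand) and Gpm6b at chrX:166238693-166238992 (plus strand). Capitals mark a cyclic AMP response element, TGACGTCA.
Elavl4: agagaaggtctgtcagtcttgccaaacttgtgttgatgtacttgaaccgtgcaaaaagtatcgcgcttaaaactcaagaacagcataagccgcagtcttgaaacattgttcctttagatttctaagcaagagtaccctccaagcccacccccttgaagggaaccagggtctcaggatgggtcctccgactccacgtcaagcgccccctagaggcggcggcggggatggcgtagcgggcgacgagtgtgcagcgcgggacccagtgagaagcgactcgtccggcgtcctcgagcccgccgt
Uchl1: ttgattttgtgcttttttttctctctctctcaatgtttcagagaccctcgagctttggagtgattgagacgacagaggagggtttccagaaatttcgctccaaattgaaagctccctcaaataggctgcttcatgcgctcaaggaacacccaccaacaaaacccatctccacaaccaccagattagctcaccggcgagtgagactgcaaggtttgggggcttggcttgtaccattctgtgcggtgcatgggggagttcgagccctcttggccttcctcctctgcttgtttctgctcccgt
Gpm6b: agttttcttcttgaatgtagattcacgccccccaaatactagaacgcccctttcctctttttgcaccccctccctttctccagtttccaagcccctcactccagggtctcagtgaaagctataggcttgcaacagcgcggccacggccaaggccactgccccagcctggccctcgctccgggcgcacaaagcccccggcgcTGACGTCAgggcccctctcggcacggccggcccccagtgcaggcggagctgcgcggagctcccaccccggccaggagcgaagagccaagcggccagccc
A search on both strands for TATAAA, the GC box GGGCGG, the E-box CANNTG and the RE1 half-sites CAGCACC and GGACAG found none of them in these 3 windows. Of all 32851 listed windows, 13.6%, 35.7%, 72.3%, 7.14% and 22.2% hold them, in that order of motifs. The cyclic AMP response element is in 1.79% of all windows and in that of Gpm6b, and it was added to the search after the windows had been read. A match or its absence describes these letters alone.

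Genes for making and loading transmitters did not pass in any of 5 cases. Chat, which makes acetylcholine, had 0.23, 0.41, 0.43 and 0.32 on the curcumin arrays and 0.19, 0.37, -0.04 and -0.09 on the control arrays (difference 0.24, 95% interval -0.01 to 0.49, adjusted p = 0.301 in limma). Control array 4 holds the value of a single Chat probe and the other arrays the mean of a pair. The probe missing there read higher than its partner on each remaining array. The probe measured on every array gave 0.10 (SE 0.08), and the other gave 0.24 (SE 0.17). Without control array 4 the difference of Chat was 0.17. Slc18a3, the vesicular acetylcholine transporter, had -0.23, 0.03, 0.00 and -0.16 on the curcumin arrays and -0.17, -0.27, -0.19 and 0.26 on the control arrays (95% interval of the difference -0.28 to 0.28). In both cholinergic genes the arrays of the diets overlapped. Nos1, the neuronal nitric oxide synthase, had a difference of -0.14 (95% interval -0.42 to 0.15). The genes of noradrenaline synthesis, Th and Dbh, had 0.08 (95% interval -0.14 to 0.29) and 0.04 (95% interval -0.14 to 0.21).

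The neuropeptide genes varied more between mice of 1 diet than between the diets, and none passed. Vip, the peptide of inhibitory motor and secretomotor neurons, had 0.97, 1.21, 0.20 and 1.12 on the curcumin arrays, against 0.10, -0.23, 1.18 and 1.17 on the control arrays. Curcumin array 3 and control arrays 1 and 2 were low and the other 5 arrays lay near 1, so each diet held mice of both kinds (difference 0.32, 95% interval -0.48 to 1.12, adjusted p = 0.702 in limma). Tac1, the precursor of substance P, had 0.65, 1.77, 0.19 and 0.89 on the curcumin arrays and 0.80, 0.80, 0.80 and 1.23 on the control arrays. Curcumin array 2 holds the value of a single Tac1 probe and every other array the mean of a pair. The probe measured on all 8 arrays averaged 1.28 ± 0.56 in curcumin mice and 1.64 ± 0.46 in control mice (SD, n = 4 each), with overlap.

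Gal, which encodes galanin, had -0.27, 0.13, -0.10 and -0.06 on the curcumin arrays and -0.18, -0.05, 0.20 and 0.15 on the control arrays. Its difference of -0.11 did not pass (adjusted p = 0.69 in limma). Npy, of sympathetic fibres and some enteric neurons, averaged -0.30 ± 0.11 in curcumin mice and -0.32 ± 0.18 in control mice (SD, n = 4 each). Calb2, the calcium-binding protein calretinin found in enteric neurons, had a difference of 0.26 over 3 curcumin and 4 control arrays (95% interval -0.05 to 0.58, adjusted p = 0.359 in limma). It was -0.01 within the shared slide range, where curcumin array 1 (-0.24) was the only curcumin array with a value, so that value cannot show whether the difference holds there. Calb2 rests on 1 of 3 probes. Of the unused probes, 1 averaged 0.37 over 4 curcumin and 0.36 over 2 control arrays. The other had 0.28 on curcumin array 1 and 0.29 on control array 1. With the former included the difference was 0.33, which did not pass (adjusted p = 0.127 in limma). In that fit control arrays 1 and 4 hold the lower probe alone.

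The receptors through which neural crest progenitors colonise the gut did not pass either. Ret, the receptor for the glial cell line-derived neurotrophic factor family, had 0.12, -0.21, 0.12 and 0.03 on the curcumin arrays and -0.05, -0.22, 0.03 and 0.18 on the control arrays (difference 0.03, 95% interval -0.22 to 0.28). Its co-receptor Gfra1 had -0.02, -0.08, -0.18 and -0.10 on the curcumin arrays and -0.16, 0.09, -0.18 and -0.32 on the control arrays (95% interval of the difference -0.17 to 0.26). The endothelin receptor gene Ednrb had -0.52, -0.62, -0.62 and -0.63 on the curcumin arrays and -0.60, -0.54, -0.34 and -0.70 on the control arrays (95% interval of the difference -0.25 to 0.15). For these 3 genes the arrays of the diets overlapped, and the intervals exclude differences as large as that of Uchl1.

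Glial genes went different ways. Gpm6b, a membrane glycoprotein of the proteolipid family made by glia, neurons and some cells outside the nervous system, had 0.31, 0.73, 0.16 and 0.08 on the curcumin arrays, against 1.78, 1.66, 1.48 and 2.05 on the control arrays. The highest curcumin value lay well below the lowest control value. The difference was -1.42 (SE 0.16, 95% interval -1.79 to -1.05, adjusted p = 0.00278 in limma), and it passed with any 1 array left out (-1.56 to -1.32). It rests on 1 of 4 probes, because the other 3 had values on too few arrays to be used. Of those, the one with most values had 0.23 on 1 curcumin array and 0.33, 0.06 and 0.13 on 3 control arrays, so its curcumin value lay inside the control range. Another had 1.11 on curcumin array 2 and 0.10 on control array 3, and the last had 0.51 and -0.17 on curcumin arrays 2 and 4 and -0.08 on control array 3, so neither showed lower values with curcumin on average. When all 4 probes were averaged before genes with missing values were removed, the difference was -0.77 and did not pass (adjusted p = 0.171 in limma). That average holds different probes on different arrays: control array 1 has the usable probe alone and control array 3 all 4. Within the shared slide range it was -1.22 and just missed the threshold (adjusted p = 0.0503 in limma).

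S100b, a calcium-binding protein of enteric glia, leaned the opposite way without passing. It had 0.55, 0.44, 0.13 and 0.39 on the curcumin arrays, against -0.12, 0.09, 0.06 and -0.03 on the control arrays, with no overlap (difference 0.38, SE 0.10, 95% interval 0.15 to 0.60, adjusted p = 0.0722 in limma). It passed with array weights (adjusted p = 0.0331) and without curcumin array 3, its lowest curcumin value (adjusted p = 0.0368). In every other alternative fit it did not pass, with adjusted p up to 0.168 in limma, without curcumin array 1. Gfap, the intermediate filament of reactive glia, averaged 0.15 ± 0.24 in curcumin mice and 0.06 ± 0.16 in control mice (SD, n = 4 each). Without curcumin array 1, at 0.51, the Gfap difference was -0.02 in place of 0.10.

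The transcription factor Sox10, which maintains glial identity, had a difference of -0.02 (95% interval -0.18 to 0.15). The low-affinity neurotrophin receptor gene Ngfr had 0.03 (95% interval -0.23 to 0.29). Erbb3, the neuregulin receptor of Schwann cells and glia that is also made by epithelium, had -0.30 over 3 arrays per diet (95% interval -0.70 to 0.09), from 1 of 4 probes. That value was -0.11 without curcumin array 4 and 0.01 with probes measured on at least 2 arrays per diet included. Within the shared slide range it was -0.05, with curcumin array 2 (0.12) as the only curcumin array with a value. None of these 3 separated the diets.

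**Figure D3:**
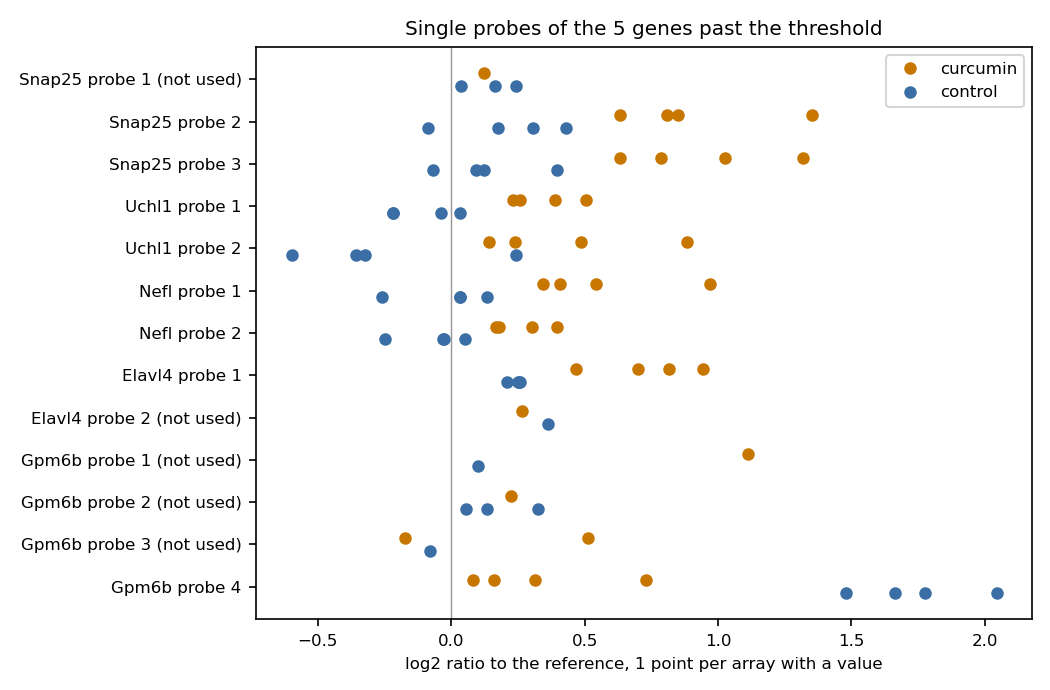
The horizontal axis gives the log2 ratio to the reference for every probe of the 5 genes past the threshold, 1 point per array with a value, curcumin above control, probes numbered by their place on the array. Usable probes of Snap25 and Nefl keep the diets apart, and of the 4 Gpm6b probes the single usable one does, with control arrays from 1.48 to 2.05.

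The neuronal and glial genes were also described as groups. Of 27 neuronal genes 22 had a difference above 0 and 5 below, with a median of 0.08, while 43.8% of all measurements were above 0, with a median of -0.02. Of the 6 glial genes 3 were above and 3 below 0, with a median of 0.01. With 1 array left out, the neuronal median ran from 0.05 to 0.11 and the glial median from -0.04 to 0.07, and without control array 2 they were 0.08 and 0.07. The array medians over neuronal genes ran from 0.08 to 0.12 in curcumin mice and from -0.06 to 0.00 in control mice, without overlap. Those over glial genes ran from -0.04 to 0.31 in curcumin mice and from -0.03 to 0.13 in control mice. The neuronal minus glial median ran from -0.24 to 0.15 in curcumin mice and from -0.14 to 0.03 in control mice, so the diets overlapped in this contrast. Genes measured on the same arrays are not independent, and no test was made over the group.

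**Figure D4:**
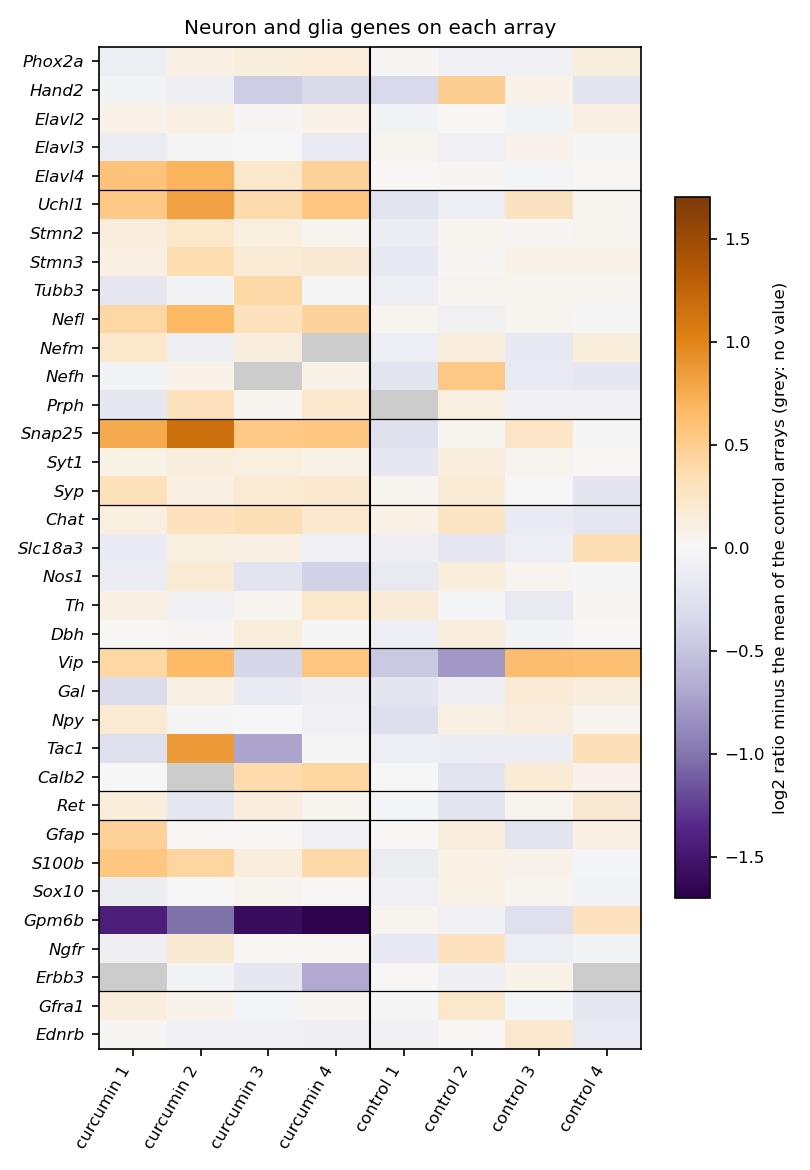
Each cell gives a gene's log2 ratio on 1 array minus the mean of the control arrays (orange above it, violet below, grey for no value), with curcumin arrays left, control arrays right and lines between roles. Elavl4, Uchl1, Nefl and Snap25 are above the control mean on all 4 curcumin arrays, most on array 2, and Gpm6b is below it on all 4.

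The mice of 1 diet differed among themselves. Curcumin array 2 had the highest value of its diet in 14 of 27 neuronal genes, including Snap25, Uchl1, Elavl4 and Nefl, and curcumin array 3 had the lowest value of its diet in those 4 genes. Control array 1 had the lowest value of its diet in 12 neuronal genes. Without curcumin array 2 the rises of Snap25 (0.62) and Nefl (0.38) passed, and those of Elavl4 (0.42, adjusted p = 0.0591 in limma) and Uchl1 (0.49, adjusted p = 0.0836) did not. Leaving out any 1 of control arrays 1, 2 and 4 or curcumin arrays 1 and 4 ended the call of all 4 rises, with adjusted p from 0.0507 to 0.099, while every such difference stayed positive. Elavl4 also lost it without control array 3 (adjusted p = 0.051). Within the shared slide range, with 2 curcumin arrays, Elavl4 alone passed of the 5, and the rises were 0.54 to 0.97.

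Other genes of enteric neurons and glia, outside the set, held 4 that rose and none that fell. Of 28 further neuron genes 25 were tested, with a median of 0.02, and Nmu, Grp, Map2 and Sst rose. Nmu encodes neuromedin U and averaged 0.88 ± 0.11 in curcumin mice and -0.25 ± 0.14 in control mice (SD, n = 4 each), a difference of 1.13 (SE 0.09, adjusted p = 0.000768 in limma). Grp encodes gastrin-releasing peptide, and its difference was 1.04 (SE 0.16, adjusted p = 0.00873 in limma). The dendritic microtubule protein gene Map2 had 0.85 (SE 0.08, adjusted p = 0.00148 in limma). Sst encodes somatostatin, which enteroendocrine cells also make, and had 0.54 (SE 0.10, adjusted p = 0.0221 in limma).

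Further lists held few genes that passed. None of 15 other synaptic genes passed (median 0.06), with Sncg at 0.33 (adjusted p = 0.0746) and Stx1a at -0.24 (adjusted p = 0.346 in limma). None of 13 other glial genes passed (median -0.02), with Sostdc1 at -0.46 (adjusted p = 0.124) and Foxd3 at -0.54 (adjusted p = 0.14 in limma). Among 20 genes of neurotrophic and endothelin signalling 1 rose and none fell, the epidermal growth factor receptor relative Erbb2 (0.40, SE 0.07, adjusted p = 0.0143 in limma), which epithelium also makes. None of 18 receptors for transmitters and peptides passed (median 0.08), with Chrnb2 at -0.26 and Gucy1b1 at 0.15. None of 5 sensory afferent genes passed (median 0.01), with Calcb at 0.34 and P2rx3 at -0.14.

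Markers of other cells of the gut wall moved with the diet beside these genes. Snap25 and Uchl1 are also made by enteroendocrine cells, and of 14 enteroendocrine markers tested 3 rose and none fell. They were Insl5 (1.36), a peptide hormone gene, and Chga (1.34) and Chgb (0.95), which encode hormone granule proteins, with adjusted p of 0.00538, 0.00363 and 0.0458 in limma. The array medians of this list ran from 0.31 to 0.46 in curcumin mice and from -0.09 to 0.12 in control mice. The part of enteroendocrine cells in the rises of Snap25 and Uchl1 was not tested. No smooth muscle marker of 18 passed (median 0.19), with Ppp1r14a at 0.80 (adjusted p = 0.0558) and Lmod1 at 0.30 (adjusted p = 0.349 in limma), and their array medians ran from 0.11 to 0.42 in curcumin mice and from -0.23 to 0.34 in control mice, with overlap.

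Of 9 markers of interstitial cells of Cajal, the pacemaker cells beside enteric nerves, 2 rose, Thbs4 (1.61) and Ano1 (1.48), and Gja1 fell (-0.55). Among colonocyte markers 3 of 16 rose, Car4 (2.41), Slc26a3 (2.17) and Car2 (0.97), with a list median of 0.40. In the other direction 5 of 10 macrophage markers fell, led by Tyrobp (-1.56), C1qc (-1.25), C1qa (-1.13) and Lyz2 (-0.88). Of 10 fibroblast markers 4 fell, Col1a2 (-1.28), Thy1 (-0.92), Col1a1 (-0.78) and Col3a1 (-0.56). Array medians of the fibroblast list ran from -0.69 to -0.44 in curcumin mice and from 0.07 to 0.35 in control mice. Those of the macrophage list ran from 0.00 to 0.32 in curcumin mice and from 0.31 to 1.04 in control mice. Gpm6b fell beside these lists, and their part in its fall was not tested.

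Of 12 endothelial markers 3 fell, Egfl7 (-0.59), Eng (-0.41) and Esam (-0.30), and of 9 T and B cell markers 1 fell, Cd3d (-0.82). Of 8 mesothelium and adipose markers 2 rose, Adipoq (1.84) and Fabp4 (1.13). No mast cell marker of 8 passed, with Hdc at -1.51 (adjusted p = 0.082 in limma) and Cpa3 at 0.16.

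**Figure D5:**
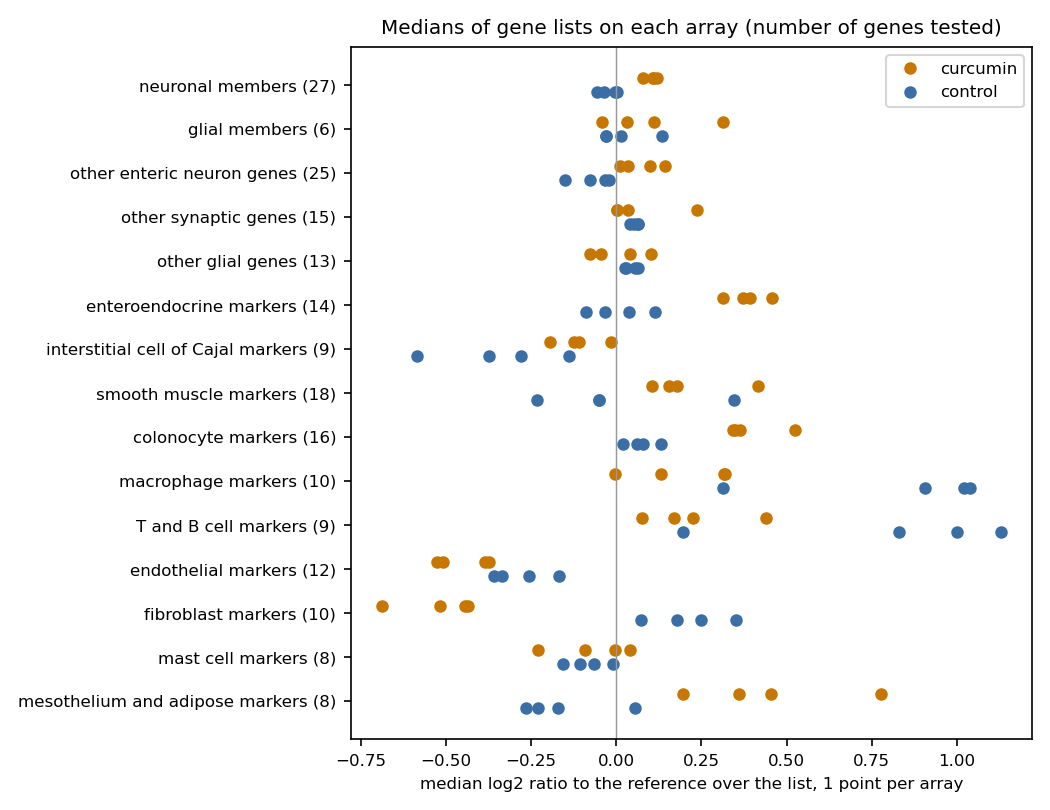
The horizontal axis gives the median log2 ratio to the reference over each list on each array, curcumin above control, with the number of genes tested in brackets. The neuronal, other enteric neuron, enteroendocrine, colonocyte, and mesothelium and adipose medians lie higher on all 4 curcumin arrays than on any control array. The fibroblast and endothelial medians lie lower, and the medians of the other lists overlap, glial and smooth muscle included.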

How the data were processed

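RNA of 8 mouse colons was measured on 2-colour arrays. The deposited values are log2 ratios, made by the authors; the submitters' processing notes name limma, without its role. The direction, normalization and background steps are not given in the sources used here. No column was without a sample. With 4 mice per diet, the median SE of a difference was 0.108.

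Of 32089 probes with annotation, 31906 matched GRCm38.p6 by gene identifier, and 32042 had a single symbol. Probes with values on at least 3 arrays per diet were averaged per gene, probes without a single symbol stayed alone, and 24030 measurements were fitted with limma 3.58.1 in R 4.3.3 (lmFit, eBayes, curcumin minus control, two-sided, Benjamini-Hochberg adjustment over all, threshold 0.05). SE and 95% intervals are moderated. The steps were tested on simulated data. Figures used Python 3.11.15 and matplotlib 3.10.9.

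On each array 191 to 397 features shared 1 log ratio; no gene of the set held it. Genes and lists were chosen with earlier results of these data known. All 36 genes are accounted for; of each other list up to 4 genes past the threshold with the largest change, or the 2 with the smallest p, are named. Alternatives were single probes, a filter of 2 arrays, quantile normalization, slide range, array weights, a replicate block, each array left out and the shared value removed; averaging before filtering was added after seeing the data.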

Additional observations from a re-analysis of the deposited data

Results flagged for a closer look

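In 7 of 64 sets of 4 arrays, 1 array of a diet stood apart from the other 3 of that diet by more than Dixon's 95% critical value; chance gives this in about 1 of 20. These were Elavl4 on control array 3 (0.21, others 0.25 to 0.26), Stmn2 on control array 1 (-0.20, others -0.05 to -0.03), Tubb3 on control array 1 (-0.13, others -0.01 to 0.00), Nefh on control array 2 (0.80, others 0.04 to 0.11) and Tac1 on control array 4 (1.23, others near 0.80). On curcumin array 1 they were Gfap (0.51, others -0.02 to 0.07) and Ednrb (-0.52, others -0.63 to -0.62). For Elavl4 and Ednrb the gaps are small on the log2 scale. For Nefh 1 of its probes carried the high value, at 1.30, and without that array the difference was 0.22 in place of 0.04. For Gfap too 1 probe carried the high value, at 1.03, where the other used probe read -0.01. Without curcumin array 1 the Gfap difference was -0.02 in place of 0.10.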

How the results depend on the processing

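The 5 genes that passed kept their direction under all 17 alternatives, not all of which could change it. No gene of the set held the shared value that 1 alternative removed, and the replicate block left these 5 differences as they were. For these 5 the slide range block and the fit within the shared range gave the same differences as each other. Of the 30 other genes, S100b alone passed in any alternative, and 17 had the other sign at least once. With the slide number range as a block, 330 measurements passed (170 higher, 160 lower) and 3 genes of the set, 2 of them higher, without Uchl1 and Nefl; within the shared range it was 148 (93 higher, 55 lower) and 1 of the set, with 1 higher and 0 lower, over 2 arrays fewer. Array weights gave 1935 (794 higher, 1141 lower). The deviations of same-numbered arrays correlated at 0.16 and 0.20 for numbers 1 and 2 and at -0.01 and -0.02 for numbers 3 and 4, so the numbers were not taken as pairs; with the replicate block 743 passed (382 lower), with 1 gene of the set, Gpm6b, and 0 higher. Without 1 array, 487 to 1364 measurements passed, 233 to 533 higher and 243 to 831 lower, with 1 to 6 genes of the set, 0 to 5 of them higher, the neuronal median ran from 0.0515 to 0.112 and the glial median from -0.0351 to 0.0716. Averaging before filtering left 0 lower genes in the set. The cause of these changes was not tested. Other settings, each probe alone included, moved no count by over 1.5 times. The reference, the missing intensities and the 4 mice per diet limit what the ratios can show.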
